A study of Homo sapiens with 6 samples.

Results

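The 10 genes described here are 6 ligands of the epidermal growth factor (EGF) family (EPGN, EREG, AREG, HBEGF, TGFA and BTC), the receptors EGFR, ERBB2 and ERBB3, and the receptor inhibitor ERRFI1. They were taken by symbol from count tables of 56638 gene symbols, and all 10 passed the filter on low counts. They were chosen by their read counts and fold changes in this same comparison, so these values are a description, given without p-values, and support nothing else.

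The RNA came from HCT116, a colorectal carcinoma line established in culture. There were 3 libraries labelled control and 3 labelled ZFP90 knockout, all at passage 16 to 19 in the labels. Guide RNAs against exon 3 of ZFP90, a zinc-finger gene, made the knockout alleles. The labels do not state what the control cells received, whether the knockout is 1 clone or a pool, or whether replicates are separate cultures, so the spread between libraries may be technical.

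The ligands are made as membrane-anchored precursors that metalloproteases cut free. They bind EGFR, and some of them also bind ERBB4; the bound receptors pair up, phosphorylate each other and feed the RAS-ERK and PI3K cascades. ERBB2 has no known ligand and ERBB3 has little kinase activity, so both signal through partners. ERRFI1, also called MIG6, is induced by this signalling and binds the EGFR kinase domain to switch it off. EREG and AREG are studied in colorectal cancer as markers linked to response to EGFR antibodies.

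The libraries held between 13424356 and 17012910 reads in genes. The epithelial markers EPCAM, CDH1, KRT8, KRT18 and KRT19 were abundant, between 169.6 and 1439 CPM (reads per 1e+06 gene reads after TMM scaling, edgeR's trimmed-mean correction of library size), while the intestinal cadherin CDH17 stayed at or below 1.21 CPM. CD3E and PECAM1 had 0 reads in all 6 libraries, the 5 leukocyte markers summed to at most 1.19 CPM, and the 6 fibroblast and endothelial markers to between 74.2 and 95.4 CPM in controls and between 74.5 and 96.0 CPM in the other group, mostly from COL1A1. ZFP90 RNA itself was higher in the libraries labelled knockout, at 85.6 ± 4.74 CPM against 45.9 ± 2.52 (SD, n = 3 each), and gene counts do not show whether its reading frame is intact. Directions below therefore refer to the libraries as labelled. Control replicate 2 had fewer reads on chromosomes 6 to 9, X and Y and in the mitochondrial genome; of the genes described here only EGFR, on chromosome 7, lies on one of these.

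In the fit over 16369 genes (edgeR quasi-likelihood test, called at an adjusted p under 0.05), the libraries labelled knockout had 2 of the 10 genes called higher and 0 lower. Of all genes tested, 21.1% were called, 9.73% higher and 11.4% lower. EPGN rose about 6-fold from a very low level and AREG rose by 22.2%. The latter call was lost when the reads of the symbol AREGB were added to it. The other 8 genes had fold changes between 0.845 and 1.17. Group values did not overlap for 3 genes above and 4 below the controls, where 20.9% of all genes tested lay wholly above, 20.3% wholly below and 41.2% in either direction. Since the same comparison chose the genes, these counts are not read further. In 15 refits at the same threshold, called alternatives below, between 10.7% and 30.4% of all genes were called. They are 3 other scalings, DESeq2, limma-voom, 2 other filters, the replicate number as a block, control replicate 2 scaled by chromosome, and each of the 6 libraries left out. A stricter threshold of 0.01 called 9.08%, and the sum of AREG and AREGB is given separately. The median log2 fold change of the 10 was -0.07, and that of all genes tested was 0.01.

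**Figure D1:**
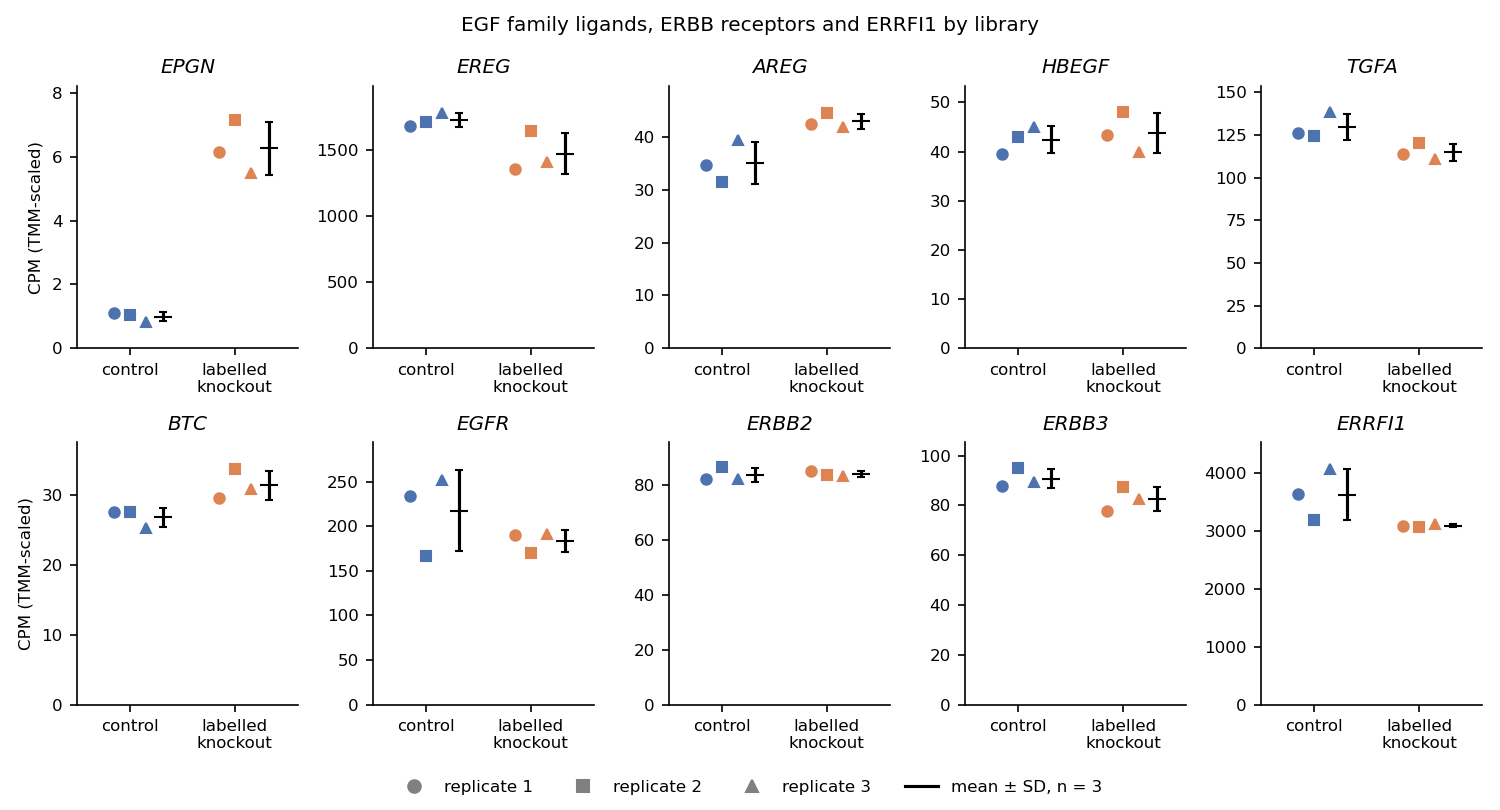
TMM-scaled CPM (y axis, from 0) of each gene in the 3 control and the 3 libraries labelled knockout (x axis), with 1 marker per library and a bar for mean ± SD. EPGN separates by the widest ratio, from 0.993 to 6.26 CPM on average, while in EGFR control replicate 2 lies apart from the other controls.

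The ligand genes EPGN, EREG, AREG and BTC lie in 1 cluster on the long arm of chromosome 4. By GENCODE release 29 on GRCh38, placed by symbol, EPGN runs from 74308473 to 74315307, EREG from 74365143 to 74388751 and AREG from 74445134 to 74455009, all on the plus strand. BTC runs from 74744759 to 74794686 on the minus strand. The gaps are 49.8 kb between EPGN and EREG, 56.4 kb between EREG and AREG, and 290 kb between AREG and BTC. The 3 neighbouring genes on the plus strand differed in level, so the 250 bases before each RefSeq start (GRCh38.p14, plus strand, 5′ to 3′) are shown for comparison. Capitals mark matches, on either strand, to 5 motifs. They are the TATA box as TATAAA and the AP-1 site as TGANTCA. The cAMP response element (CRE) was searched as TGACGTCA. The site of TEAD factors was searched as CATTCC, and the GC box as GGGCGG. Matches shown do not overlap.
EPGN, chr4:74308220-74308469: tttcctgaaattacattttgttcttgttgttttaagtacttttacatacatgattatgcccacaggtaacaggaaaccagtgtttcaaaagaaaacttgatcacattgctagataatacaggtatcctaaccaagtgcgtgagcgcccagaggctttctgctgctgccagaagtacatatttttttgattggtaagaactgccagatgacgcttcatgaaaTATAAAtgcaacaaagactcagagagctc
EREG, chr4:74364895-74365144: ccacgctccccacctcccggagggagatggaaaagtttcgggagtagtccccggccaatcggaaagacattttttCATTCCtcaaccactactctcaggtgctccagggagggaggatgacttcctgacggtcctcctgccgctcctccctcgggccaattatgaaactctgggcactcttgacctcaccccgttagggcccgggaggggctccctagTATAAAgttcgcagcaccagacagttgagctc
AREG, chr4:74444886-74445135: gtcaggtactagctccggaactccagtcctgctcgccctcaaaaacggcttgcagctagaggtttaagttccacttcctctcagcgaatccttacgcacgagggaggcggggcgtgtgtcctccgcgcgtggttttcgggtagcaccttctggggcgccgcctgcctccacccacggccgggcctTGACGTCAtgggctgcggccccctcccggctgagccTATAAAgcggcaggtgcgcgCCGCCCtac

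All 3 windows hold a TATAAA, which begins 29 bases before the start in EPGN, 32 in EREG and 29 in AREG. Of 34943 promoter windows of the same length, 10.8% hold that match. The AREG window also holds a full TGACGTCA that begins 65 bases before the start, found in 1.63% of windows, and a GC box on the opposite strand 9 bases before it, found in 42.5%. The EREG window holds a CATTCC 175 bases before the start, found in 11.9%. EPGN had no other match, and no TGANTCA stood in any of the 3 windows against 6.59% of all windows. The windows also differed in composition. EPGN was 38% G or C and had 3 CpG, at percentile 9.56 of all windows for its G and C share. EREG was 58% with 11 CpG (percentile 49.2), and AREG was 65.2% with 23 CpG (percentile 67.6). The BTC window, at chr4:74794524-74794773 on the minus strand, held none of the 5 motifs. A match describes letters and is not a measured binding site.

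EPGN encodes epigen, a low-affinity ligand of EGFR. It was counted with 18, 16 and 11 reads in control replicates 1 to 3 and with 102, 101 and 84 reads in the libraries labelled knockout. In CPM these are 1.11, 1.05 and 0.82 against 6.15, 7.15 and 5.49. Every library labelled knockout lay far above every control. The log2 fold change was 2.63 (SE 0.20), a 6.20-fold rise, and it stayed between 2.52 and 2.72 over the 15 alternatives and was called in each of them. Even so, per exonic length EPGN was the lowest of the 10 genes in both groups, at 0.547 ± 0.084 RPKM (CPM per kilobase of exon) in controls and 3.45 ± 0.462 (SD, n = 3 each).

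EREG encodes epiregulin and was by far the most abundant ligand. It ranked 28th of the 56638 symbols by mean CPM. The control libraries had 1678, 1712 and 1777 CPM and those labelled knockout 1352, 1644 and 1410. All 3 of the latter lay below all controls, with replicate 2 labelled knockout close under the lowest control. The log2 fold change was -0.23 (SE 0.078), a mean 14.7% below control, and it was not called. EREG was called lower in 6 of the 15 alternatives, among them without control replicate 2 (-0.23) and without knockout-labelled replicate 2 (-0.32).

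AREG encodes amphiregulin, another EGFR ligand. It measured 34.6, 31.4 and 39.3 CPM in the controls and 42.4, 44.5 and 41.9 CPM in the libraries labelled knockout. The groups did not overlap, and the log2 fold change was 0.29 (SE 0.085). The call held in 9 of 15 alternatives. Among others it was lost with library size alone (0.23), without control replicate 1 (0.28) and without any 1 of the libraries labelled knockout (0.26 to 0.31).

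The tables also list AREGB, a symbol that RefSeq on GRCh38.p14 gives as a synonym of AREG. AREGB moved the opposite way, from 6.84, 8.93 and 10.1 CPM to 6.03, 5.88 and 5.23, a log2 fold change of -0.59 (SE 0.16; edgeR adjusted p = 0.0335). That call held in 2 of the 6 fits with a library left out and was lost without control replicate 3 and without any 1 of the libraries labelled knockout (highest adjusted p = 0.117). Its share of the reads of both symbols was 16.5%, 22.1% and 20.5% in controls and 12.5%, 11.7% and 11.1% in the libraries labelled knockout. Summed, the 2 symbols gave 41.5, 40.3 and 49.5 CPM against 48.4, 50.3 and 47.2. These sums overlap, and the summed log2 fold change of 0.15 (SE 0.084) was not called. Between 2475612 and 3188749 reads per library aligned to more than 1 place and were set aside in the counting. Whether this lowers the AREG level was not tested.

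**Figure D2:**
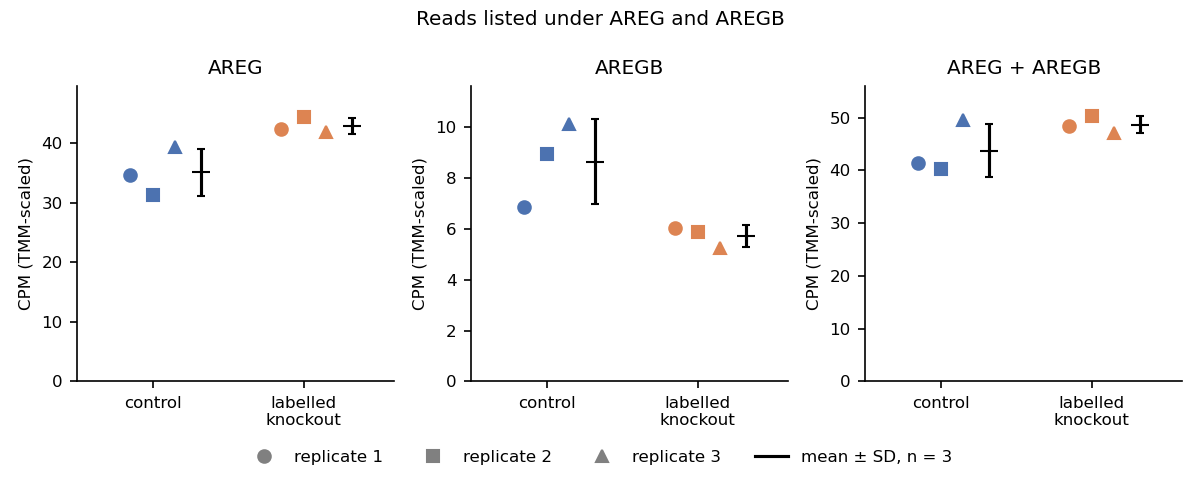
TMM-scaled CPM (y axes, from 0) of AREG, of AREGB and of their sum in each library, with bars for mean ± SD (n = 3). AREG is higher and AREGB lower in the libraries labelled knockout, and the sums of the groups overlap.

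BTC encodes betacellulin, which binds EGFR and ERBB4. It measured 27.6, 27.7 and 25.3 CPM in controls against 29.6, 33.8 and 30.9 CPM. The groups did not overlap, the log2 fold change was 0.23 (SE 0.077) and it was not called. It was called without control replicate 2 (0.24) and with that library scaled by chromosome (0.24).

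TGFA encodes transforming growth factor alpha, a classic EGFR ligand, on chromosome 2 from 70447280 to 70554193 (minus strand). Its CPM values were 126, 125 and 138 in controls and 114, 120.5 and 111 in the libraries labelled knockout. All of the latter lay below the controls, by a log2 fold change of -0.17 (SE 0.059), which was not called. It was called lower in 4 of 15 alternatives, with log2 fold changes from -0.24 to -0.13 over all 15.

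HBEGF encodes heparin-binding EGF-like growth factor, on chromosome 5 from 140332843 to 140346631 (minus strand). It measured 39.4, 42.9 and 44.9 CPM in controls and 43.4, 48.1 and 39.98 CPM in the other group. The values interleaved, and the log2 fold change of 0.047 (95% interval -0.14 to 0.24) changed sign in 3 of 15 alternatives, including scaling by library size alone. HBEGF was called in 0 of the 15.

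EGFR, the receptor that all 6 ligands bind, lies on chromosome 7 from 55019021 to 55211628 (plus strand). It measured 234, 166 and 252 CPM in controls 1 to 3 and 190, 170 and 191 CPM in the libraries labelled knockout. The groups overlap only through control replicate 2, which lay below all 5 other libraries. That library had 68.5% of the mean of the other controls for EGFR, where the median gene of chromosome 7 had 80.2%. With all libraries the log2 fold change was -0.24 (SE 0.13) and not called. Without control replicate 2 it was -0.40 (27.7% of all genes called), with that library scaled by chromosome -0.33 (30.4% called), and both were called lower. It was also called, at -0.24, with no filter on low counts. Without control replicate 3 it was -0.12 and not called. The antisense transcript EGFR-AS1 had 3 to 14 reads per library; strand was not recorded in the sources used here, so its reads and those of EGFR cannot be told apart where they overlap.

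ERBB2 lies on chromosome 17 from 39687914 to 39730426 (plus strand). It had the log2 fold change nearest 0 of the 10. Its values were 82.1, 86.6 and 82.3 CPM in controls and 85.2, 83.8 and 83.2 CPM in the libraries labelled knockout. The groups overlap. The log2 fold change was 0.0058 (95% interval -0.11 to 0.12), and its sign changed in 5 of 15 alternatives, among them upper-quartile scaling and library size alone. ERBB3, on chromosome 12 from 56076799 to 56103505 (plus strand), measured 87.8, 94.97 and 89.6 CPM against 77.6, 87.4 and 82.6 CPM. All 3 libraries labelled knockout lay below the controls, the highest of them just below the lowest control. Its log2 fold change of -0.14 (SE 0.061) was negative in all 15 alternatives and called in 0 of them.

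ERRFI1, on chromosome 1 from 8004404 to 8026308 (minus strand), was more abundant than every ligand and receptor described here and ranked 12th of all symbols by mean CPM. It took up between 0.299% and 0.406% of all gene reads. The controls had 3632, 3178 and 4058 CPM and the libraries labelled knockout 3081, 3059 and 3112. The latter differed among themselves by an SD of 26.8 CPM, the controls by 440.2 CPM. All 3 lay below the lowest control, control replicate 2, by a log2 fold change of -0.23 (SE 0.088) that was not called. Control replicate 2 had 82.7% of the mean ERRFI1 level of the other controls, where the median gene of chromosome 1 had 103%. Without control replicate 2 the log2 fold change was -0.32 and called lower, and without control replicate 3 it was -0.14 and not called.

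**Figure D3:**
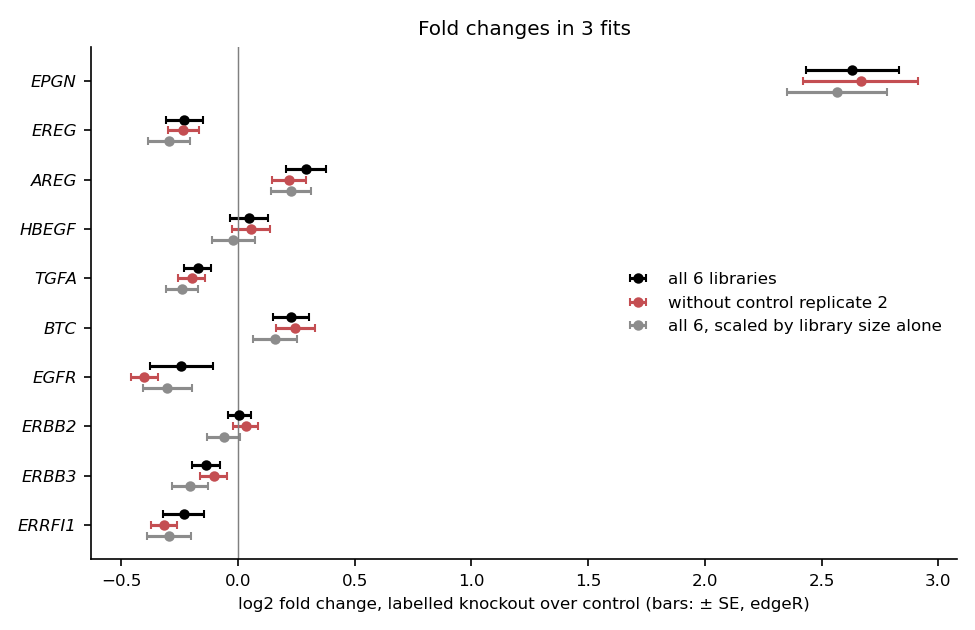
Log2 fold changes (x axis, libraries labelled knockout over control, bars ± SE from edgeR) of the 10 genes with all 6 libraries, without control replicate 2, and with scaling by library size alone. EPGN stands at 2.63, EGFR moves from -0.24 to -0.40 without control replicate 2, and HBEGF and ERBB2 change sign with library size alone.

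Levels were compared between genes only per exonic length, in RPKM computed with the union of all GENCODE release 29 exons of each gene. That union was 1648 bases for AREG, 9039 for ERBB3, 10321 for ERBB2 and 12521 for EGFR. It can exceed the length of a single transcript, and the order with other lengths was not computed. In controls ERRFI1 stood at 865 ± 105 and EREG at 301 ± 8.82 RPKM. TGFA (26.1 ± 1.52) and AREG (21.3 ± 2.43) followed, then EGFR (17.4 ± 3.61) and HBEGF (14.1 ± 0.922). ERBB3 (10.04 ± 0.412), BTC (9.53 ± 0.485), ERBB2 (8.11 ± 0.247) and EPGN closed the order (SD, n = 3 each). In that order AREG and EGFR, EGFR and HBEGF, and ERBB3 and BTC overlapped between libraries. EGFR and HBEGF did so only through control replicate 2 (EGFR at 13.3 RPKM), the library with fewer reads on chromosome 7. In the libraries labelled knockout AREG (26.05 ± 0.816) stood above TGFA (23.2 ± 1.00) and BTC (11.2 ± 0.756) above ERBB3 (9.13 ± 0.539), and only EGFR and HBEGF overlapped. AREG is taken here without AREGB. AREGB held 16.5% to 22.1% of the reads of both symbols in controls and 11.1% to 12.5% in the other group. The order of AREG and TGFA with both symbols summed was not computed.

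EREG made up 80.3% to 81.3% of the summed RPKM of the 6 ligands in controls and 75.5% to 77.6% in the libraries labelled knockout. The ranges do not overlap. The sum of all 6 ligands was 373 ± 12.4 against 335 ± 31.0 RPKM (SD, n = 3 each), with replicate 2 labelled knockout (371) inside the control range. Without EREG the sum was 71.6 ± 3.92 against 78.4 ± 4.24 RPKM, and these ranges also overlap. EPGN made up 0.117% to 0.168% of the ligand sum in controls and 0.941% to 1.08% in the other group. EGFR made up 51.4%, 41.3% and 53.0% of the summed receptor RPKM in controls 1 to 3 and 43.2% to 47.4% in the libraries labelled knockout. The 41.3% belongs to control replicate 2, which had fewer reads on chromosome 7, where EGFR lies.

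**Figure D4:**
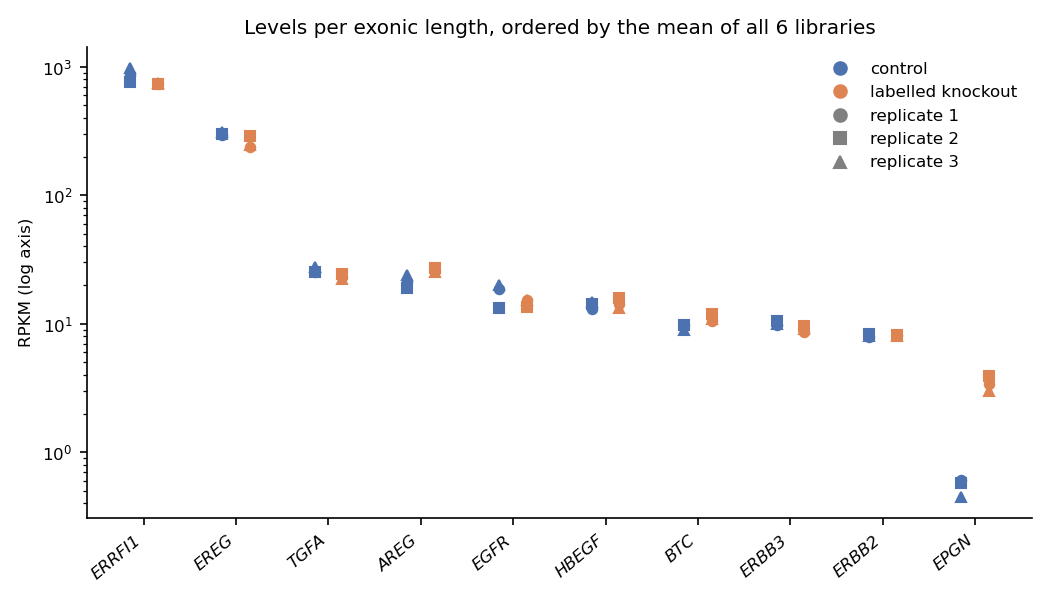
RPKM per library (log y axis) of the 10 genes in the order of their mean over all 6 libraries (x axis), with controls in blue and libraries labelled knockout in orange. ERRFI1 and EREG lie far above the rest, and EPGN is the lowest in both groups.

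By Pearson's r of log2 CPM over the 6 libraries, the genes most like EPGN were CHERP (r = 0.998), TMEM41A (r = 0.997) and STAU1 (r = 0.996). Over 2 groups of 3, such values mostly follow the difference between the groups, and 1193 of the genes tested had r above 0.9 with EPGN. The genes most like EGFR were ULBP1 (r = 0.993), the receptor kinase MET (r = 0.993) and ENOX2 (r = 0.992). They lie on chromosomes 6, 7 and X, all of them chromosomes with the deficit of control replicate 2.

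Among the other ligands and the fourth receptor of the family, all but NRG4 had few reads. Of EGF, NRG1, NRG2, NRG3, NRG4 and ERBB4, only 2 passed the count filter and 0 were called. NRG4 measured 7.45 ± 0.277 CPM in controls and 7.18 ± 0.437 (SD, n = 3 each) in the libraries labelled knockout, and was not called. EGF itself had 63 reads in all 6 libraries together, with a log2 fold change of -0.93 (SE 0.39; edgeR adjusted p = 0.128). ERBB4 had 13 reads and NRG3 had 0.

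Of 12 tested genes linked to the shedding and trafficking of the ligands, 2 were called higher and 2 lower, beside 21.1% among all genes. The 2 called higher were TIMP3 and CNIH1, neither of them a protease. ADAM10, the main sheddase of EGF and BTC, fell by 0.25 on the log2 scale (SE 0.046; edgeR adjusted p = 0.0067), from 258 to 217 CPM. ADAM15 fell by 0.39 (adjusted p = 0.00168). Both calls held with each library left out in turn. ADAM17, the main sheddase of TGFA, AREG, EREG and HBEGF, had a log2 fold change of -0.15 and was not called (adjusted p = 0.0727), with all libraries labelled knockout below the controls. TIMP3, an inhibitor of ADAM17, rose by 0.71 (adjusted p = 0.028) from only 3.16 CPM, and the call was lost in 3 of the 6 fits that left out a library, those lacking control replicate 1 or knockout-labelled replicate 2 or 3 (highest adjusted p = 0.0964). CNIH1, a cargo receptor, rose by 0.23 and lost its call in 4 of the 6 fits. ADAM17 and CNIH1 were named after their values were seen. Of the 12 genes, 8 were not called. The list's median log2 fold change was -0.06, with 5 of its 12 values above 0.

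Of 17 genes linked to the restraint or degradation of the receptors, whichever way they act, 2 were called higher and 5 lower. Among all genes 21.1% were called. The list was written with earlier results of these data known, so its counts are not read further. PTPRK, a receptor phosphatase that acts on EGFR, rose by 0.73 (edgeR adjusted p = 0.00342), from 52.3 to 87.0 CPM. It lies on chromosome 6, and its log2 fold change was 0.61 without control replicate 2. LRIG3 fell by 0.64 (adjusted p = 0.00363) in a call that held with each library left out. LRIG1, which speeds the breakdown of ERBB receptors, fell by 0.52 (adjusted p = 0.0298), and its call was lost without control replicate 1 or without any 1 library labelled knockout (highest adjusted p = 0.107). The list's median log2 fold change was -0.02.

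Adaptors and the RAS-ERK cascade had 1 of 20 genes higher and 3 lower, beside 21.1% called among all genes. The scaffold KSR1 rose by 0.49 (edgeR adjusted p = 0.00454). The exchange factor SOS2 fell by 0.32 (adjusted p = 0.00809), from 67.7 to 54.4 CPM. Both calls held with each library left out in turn. The median of the list was -0.05.

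Of 18 ERK-induced feedback and output genes 1 was higher and 4 were lower, beside 21.1% called among all genes. The list's median log2 fold change was -0.12, with 2 of its 18 values above 0, against 8406 of 16369 for all genes tested. These counts are not read further, since the list was written with earlier results of these data known. Of the ERK phosphatases, DUSP4 rose by 0.76 (edgeR adjusted p = 0.00246), from 444 to 753 CPM. DUSP5 fell by 0.80 (adjusted p = 0.000105), from 551 to 316 CPM. DUSP6 and DUSP7 had log2 fold changes of -0.23 and -0.15 and were not called (edgeR adjusted p = 0.0923 and 0.284). DUSP4 lies on chromosome 8, and without control replicate 2 its log2 fold change was 0.62. Cyclin D1 (CCND1) fell by 0.44 (adjusted p = 0.00302). All 3 calls held with each library left out. The immediate-early gene EGR1 had a log2 fold change of -0.02 and was not called (adjusted p = 0.864). EGR1, DUSP6 and DUSP7 were named after their values were seen.

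Around the ligand cluster on chromosome 4, 2 of 15 tested neighbours were higher and 3 lower, beside 21.1% called among all genes. IL8, a chemokine gene, rose by 1.02 (edgeR adjusted p = 0.00525), and PARM1, beyond BTC, rose by 0.51 (adjusted p = 0.000905); both calls held with each library left out. THAP6 fell by 0.29 (adjusted p = 0.0157), a call lost when replicate 1 of either group was left out. NAAA fell by 0.40 (adjusted p = 0.0426), and its call held in 1 of the 6 fits with a library left out. The third lower symbol counted here is AREGB, which RefSeq places at AREG itself; with both symbols summed, 2 neighbours were lower. MTHFD2L, next to EPGN on its other side, had a log2 fold change of -0.0021 (adjusted p = 0.99) and was named for its place. The median of these neighbours was 0.04.

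Among 20 other receptor tyrosine kinases 18 were tested, with 1 higher and 4 lower, beside 21.1% called among all genes. MERTK fell by 0.81 (edgeR adjusted p = 0.000909) and its relative AXL by 0.77 (adjusted p = 0.000131), in calls that held with each library left out. FGFR3 rose by 0.29 (adjusted p = 0.0335), a call lost in 4 of the 6 such fits (highest adjusted p = 0.129). The median was -0.14.

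**Figure D5:**
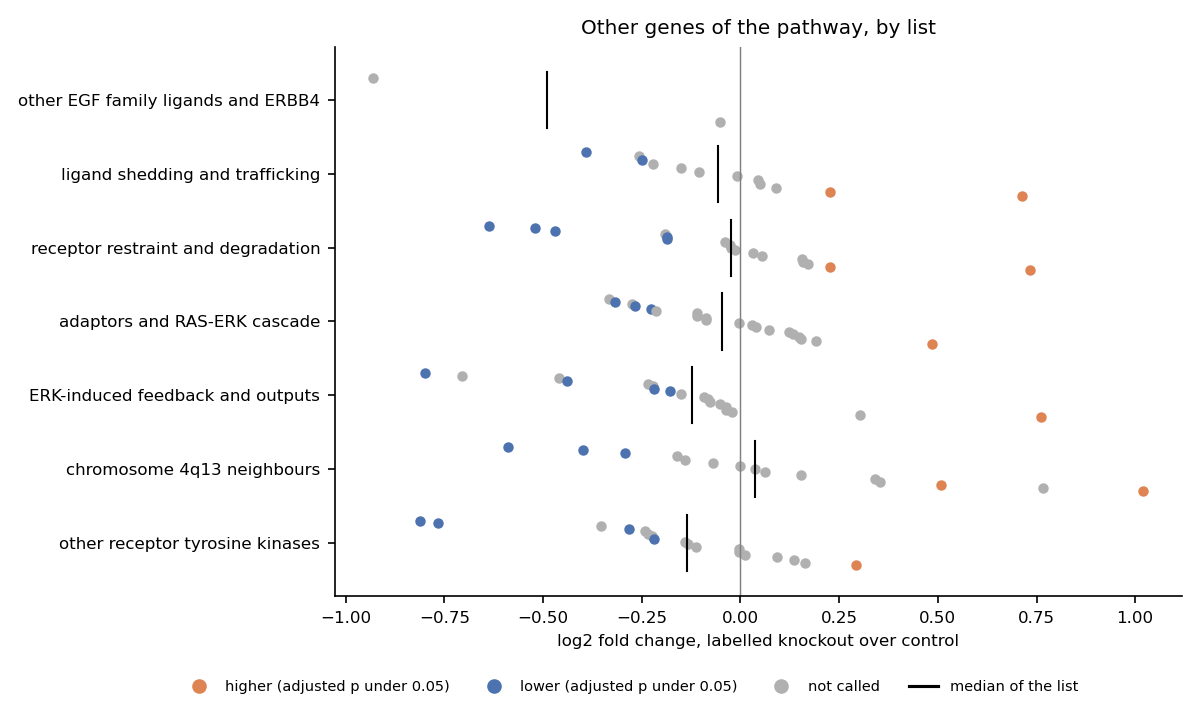
Log2 fold change (x axis, libraries labelled knockout over control) of each tested gene in 7 lists (y axis), coloured by the edgeR call, with a bar at each list's median. Medians lie between -0.14 and 0.04 in the 6 lists with more than 2 tested genes, and most lists hold genes called in both directions.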

How the data were processed

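The labels' protocols give a TruSeq kit and 1 µg of RNA as input. For each library the authors deposited whole-number HTSeq counts by symbol. TopHat2 2.0.11, HTSeq, hg19 and GRCh37 are named in the submitters' processing notes; the strand setting is not given in the sources used here. The 5 summary lines held 31.7% to 32.4% of listed reads and were dropped before scaling. A floor of 3 reads corresponds to 0.176 to 0.223 CPM, for counting error only.

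Differences were fitted in edgeR 4.0.16 (R 4.3.3) with TMM scaling, filterByExpr (minimum count 10, total 15), quasi-likelihood test, two-sided, Benjamini-Hochberg over 16369 genes, called under 0.05. SE is the absolute log2 fold change over the root of F. The code was tested on simulated data. CPM and RPKM were computed from counts with TMM-scaled sizes. Alternatives were 3 scalings, DESeq2 1.42.0, limma-voom 3.58.1, 2 filters, the replicate block, a threshold of 0.01, each library left out, control replicate 2 scaled by chromosome and, chosen after seeing the data, AREG summed with AREGB. No replicate pair agreed within sampling noise. Chi-square per degree of freedom was 19.8 for control replicate 2 against either other control, and 2.20 to 3.98 for the remaining pairs.

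Members and lists were chosen with earlier results of these data known. Named genes are the members, per list the 3 called genes with the largest change or, with none called, the 2 most abundant, every called neighbour on chromosome 4, and the 3 genes most like the members with the highest and the lowest log2 fold change. No set test was run. One gene that this rule would name is not reported here. IL8 and AREGB were matched to RefSeq synonyms for placement. Promoters came from RefSeq on GRCh38.p14.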

Additional observations from a re-analysis of the deposited data

How the results depend on the processing

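EPGN kept its direction and call in all 15 alternatives, and the other genes except HBEGF and ERBB2 kept their direction. HBEGF was -0.021 with library size alone and ran from -0.026 to 0.11 with 1 library left out. ERBB2 was -0.017 with upper-quartile scaling, -0.062 with library size alone and -0.012 to 0.032 with 1 library left out. Why single calls moved was not tested.

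Of all genes tested, 1593 were higher and 1861 lower, so 46.1% of calls were higher. Library size alone gave 986 higher, or 29.6% of calls, and a threshold of 0.01 gave 618 and 869. Scaling control replicate 2 by chromosome gave 2453 higher. With 1 library left out the counts ran from 756 to 2261 higher and 1025 to 2361 lower.

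Of the 10 genes, upper-quartile scaling and limma-voom called 1 lower, library size alone 1 higher and 3 lower, no filter 3 lower, the chromosome scaling 4 lower, and the replicate block, the threshold of 0.01 and the sum of AREG and AREGB 1 higher. With 1 library left out 1 to 3 were higher and 0 to 4 lower. The 3 and the 4 came without control replicate 2, where 13.5% of all genes were higher and 14.1% lower.

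Of the shedding list, upper-quartile scaling, library size alone and DESeq2 called 1 higher and the threshold of 0.01 called 0 higher; the left-out range was 0 to 2 higher and 2 to 4 lower. Of the restraint list, library size alone called 1 higher, the threshold of 0.01 called 1 higher and 2 lower, and the chromosome scaling 4 higher, with left-out ranges of 1 to 4 higher and 2 to 7 lower. The chromosome scaling called 3 cascade genes higher and 5 lower. Of the ERK list, no filter, the replicate block and the chromosome scaling called 2 higher and the threshold of 0.01 called 2 lower, with 2 to 5 lower when 1 library was left out. No filter called 1 of the list of other EGF family ligands and ERBB4 lower. The threshold of 0.01 called 0 neighbours on chromosome 4 lower, and the left-out range was 0 to 2. Of the other receptor kinases, upper-quartile scaling, library size alone, the replicate block and the threshold of 0.01 called 0 higher and the chromosome scaling 7 lower, with left-out ranges of 0 to 1 higher and 3 to 7 lower.

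The labels do not state whether same-numbered libraries were handled together. Their deviations from the group means correlated weakly, at 0.049, 0.145 and 0.093, and each control correlated best with its own number. Whether they share a batch was not tested. With the replicate block 1623 genes were higher and 1840 lower, and AREG, at 0.29, was not called. Across the alternatives fitted at the same threshold between 10.7% and 30.4% of genes were called.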
